A study of Mus musculus with 24 samples.

Results

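The 426 AGO2 peaks described here hold a site for miR-142-3p, out of 14634 peaks in the authors' deposited table. A peak was taken when its deposited sequence held a match to nt 2 to 8 of mouse miR-142a-3p, or to nt 2 to 7 followed by an A, and no 7-nt site of miR-155-5p. The choice used letters alone and no read values. A further 4 peaks held sites of both microRNAs and were left out, with 77.5 reads in KO and 73.1 in WT at Dmtf1, 32.2 in KO and 86.9 in WT at Picalm, 13.8 in KO and 33.7 in WT at Terf1, and 0 in KO and 3.52 in WT at Thada. The 426 peaks lay in 392 of the 4165 genes of the table, which is 9.41% of them.

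In HITS-CLIP, Argonaute 2 (AGO2), the protein that holds microRNAs on messenger RNAs, is crosslinked to the RNA it touches, pulled down with an antibody, and the bound fragments are sequenced. Here the cells were CD4+ T cells of C57BL/6 mice, taken from spleens and lymph nodes and cultured for 4 days with antibodies to CD3 and CD28 at 1 µg/mL and with IL-2 at 20 U/mL. The miR-155 knockout (KO) group had 12 libraries, and the wild-type (WT) group had 12, with 6 libraries of each group per 3′ linker. The labels name miR-155 as the gene that differs and no change at miR-142. In the first 6 replicate numbers all KO libraries carried linker 1 and all WT libraries linker 2, and the last 6 were the reverse. Pooling mixes both sets, so neither linker's values can be seen alone.

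The table gives 1 pooled value per genotype and peak, so no value below has an error between libraries. Scaled reads were computed from the authors' log2 values by reversing a pseudocount of 1, and the depth behind them is unknown. AGO2 reads depend on how much of a transcript the cells hold, which was not measured here, and in bulk samples fewer cells of a type and less RNA per cell cannot be told apart. Of 17 markers of CD4+ T cells, 14 had peaks, with 11046 reads in KO and 9316 in WT, and Cd5, Cd6 and Lck had none listed. Of 9 markers of CD8+ T and NK cells, Gzmb alone had peaks (630 reads in KO and 382 in WT). Of 9 B cell markers, 2 had peaks (13.5 reads in KO and 10.5 in WT), of 10 myeloid markers Mpeg1 alone (0 in KO and 122 in WT), and of 6 erythroid and platelet markers none.

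MicroRNAs pair with messenger RNAs mainly through a short seed near their 5′ end, and AGO2 then lowers the translation or stability of the bound message. miR-142 is made throughout the blood lineage and is among the abundant microRNAs of T cells. Its hairpin gives a mature strand from each arm, miR-142-3p and miR-142-5p, which have different seeds. In studies of other cells and of mice lacking the gene, miR-142-3p has been tied to actin regulators, integrin, cAMP and TGF-beta signalling.

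The mature strands that define the choice are shown first, from RefSeq (GRCm38.p6), with the seed in capitals. The capitals of miR-142a-3p, which lies at chr11:87756903-87756925 on the plus strand, are what a site must pair with.
miR-142a-3p: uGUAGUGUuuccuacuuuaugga
miR-155-5p: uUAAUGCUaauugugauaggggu

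A full site, called an 8mer, reads ACACTACA in the message. A 7mer-m8 site reads ACACTAC with another base in place of the last A, and a 7mer-A1 site reads CACTACA with another base before it. Of the 426 peaks, 134 held an 8mer, 135 a 7mer-m8 and 157 a 7mer-A1 as their longest site. The stretches below come from the deposited peak sequences, read 5′ to 3′ along the message, with the site in capitals. They were picked because the results turn on them: the peaks with the most reads, reported targets, genes with several sites, and peaks next to a site of miR-155.
Wasl peak 1: ggtgaaatactaaACACTACttcctgtcta
Wasl peak 7: aaaatttagtatagCACTACAttctttttt
Wasl peak 8: ctctagacaccactCACTACActaatgcag
Wasl peak 9: gtgttgcttaagatCACTACAgagatgcta
Fnip1 peak 10: atgagctgctacttCACTACAgtgtggctg
Elf2 peak 2: agctCACTACActatcacgttacactaaga
Stxbp3a peak 2: tgctgctttgtacaagatctgACACTACAg
Utrn peak 17: aaagctacacaaaACACTACAttgtaacct
Itgav peak 6: acaggtacacattACACTACAgttgacttc
Tgfbr1 peak 7: aaatttcatcctaACACTACAgtagaaaat
Cfl2 peak 6: tttcccgatgagtgtACACTACtgtataat
Cfl2 peak 7: tatgagtcttgaaACACTACAgatattttg
Irak1 peak 1: tgagtcatgagtcACACTACAtgcccctgt
Gna11 peak 1: acttggcagccaggtgacACACTACAgggt
Gna11 peak 2: ctgctgctcatatACACTACAgtgtctatc
Gna11 peak 3: tgtgccatcccatACACTACAgagctacat
Mobkl3 peak 6: tagcagtgatgttACACTACAggaaaactg
Rheb peak 2: tgatacacatgttACACTACtattaactag
Jmjd1c peak 4: taactgatatttttCACTACAttgagacag

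The peaks carried more reads than the table at large. Their median was 18.4 reads in KO (quartiles 6.20 and 44.9) and 17.9 in WT (quartiles 6.72 and 42.8). Over all 14634 peaks the medians were 7.78 in KO and 9.64 in WT. Together the 426 peaks held 4.88% of all peak reads in KO and 4.65% in WT, while they made up a smaller share of the peaks. By class, the median was 20.0 in KO and 21.7 in WT for 8mers, 16.1 in KO and 14.8 in WT for 7mer-m8 sites, and 20.6 in KO and 17.0 in WT for 7mer-A1 sites. No reads in KO were listed at 40 of the 426 peaks (9.39%) and none in WT at 18 (4.23%), against 16.6% in KO and 7.87% in WT of all peaks. The 128 peaks with the 6-nt core CACTAC alone, and no miR-155 site, had medians of 10.2 in KO and 11.0 in WT. Peaks of 15 other microRNA families, without a miR-155 site, mostly had higher medians than all peaks too. Their KO medians ran from 8.38 for miR-146 to 13.6 for miR-15/16. In WT they ran from 9.06 for miR-146 to 17.6 for miR-25/92, which is close to the 17.9 of the miR-142-3p site peaks.

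The share of peaks that hold a site was higher in each successive bin of reads, as the plot of shares by reads shows. It was 1.60% among peaks with fewer than 5 reads over both genotypes, 3.33% among those with 20 to below 50, and 8.03% (46 of 573) among those with 200 or more. In that last bin 7mer-A1 sites alone were in 4.36% of peaks. The 6-nt core alone was in 0.414% of peaks in the first bin and 1.40% in the last. Sites of several other families were also in a larger share of the last bin than of the first, with 8.03% and 2.79% for miR-15/16, 7.33% and 1.34% for miR-25/92, and 6.98% and 2.33% for the miR-17 family. For miR-181 the shares were 1.22% in the last bin and 1.71% in the first, and for miR-30 they were 2.09% and 2.59%. Little change was seen for miR-24, with 1.05% in the last bin and 0.931% in the first, or for miR-26, with 1.75% and 1.45%.

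**Figure D1:**
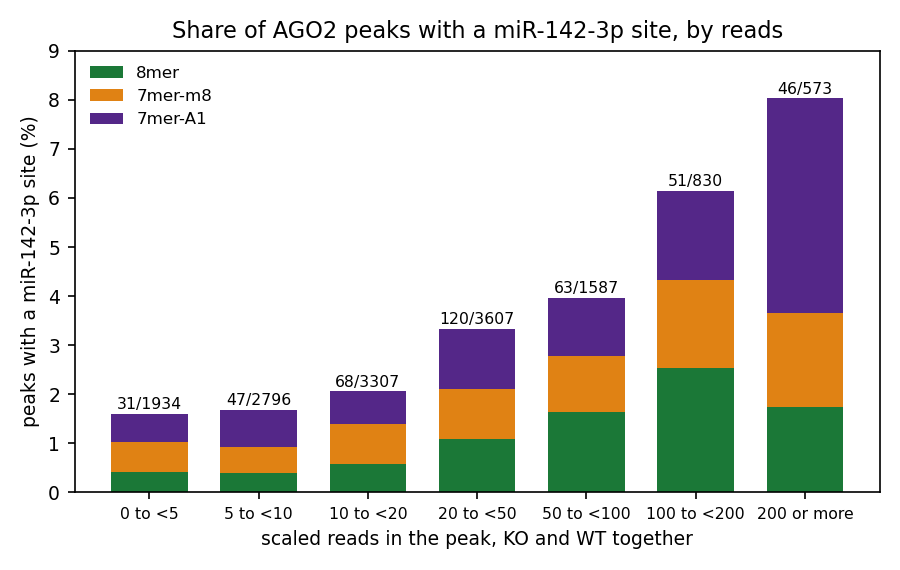
Percent of AGO2 peaks that hold a miR-142-3p site (y) by the peak's scaled reads over both genotypes (x), stacked by site class, with site peaks and all peaks of each bin written above its bar. The share is 1.60% in the lowest bin and 8.03% in the highest.

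The site words were also counted among all 7-letter words, each once per peak. CACTACA was in 294 peaks and ranked 56 of the 16199 words seen, and ACACTAC was in 270 and ranked 82. Their reverse complements, which cannot pair with the seed, were in 89 and 65 peaks. Among the 1403 peaks with at least 100 reads, CACTACA ranked 5 and ACACTAC 11 of 12413 words. These ranks describe the table and were not tested.

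Sites lay near the middle of their peaks. The middle of the seed match was a median of 2.5 nt toward the 3′ side of the peak's middle (quartiles -1.5 and 9.0), and 302 of 426 sites (70.9%) were within 10 nt of it. Among the 97 peaks with at least 100 reads the share was 80.4%, and among the 146 with fewer than 20 it was 67.8%. By the same measure, sites of miR-15/16 were within 10 nt in 76.5% of their peaks, let-7 in 72.8%, miR-142-5p in 59.7% and miR-181 in 39.6%. The deposited sequence adds a flank of 6 nt on each side of a peak. The 6-nt core of the miR-142-3p site lay wholly inside the peak, without its flanks, in 403 of the 426.

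**Figure D2:**
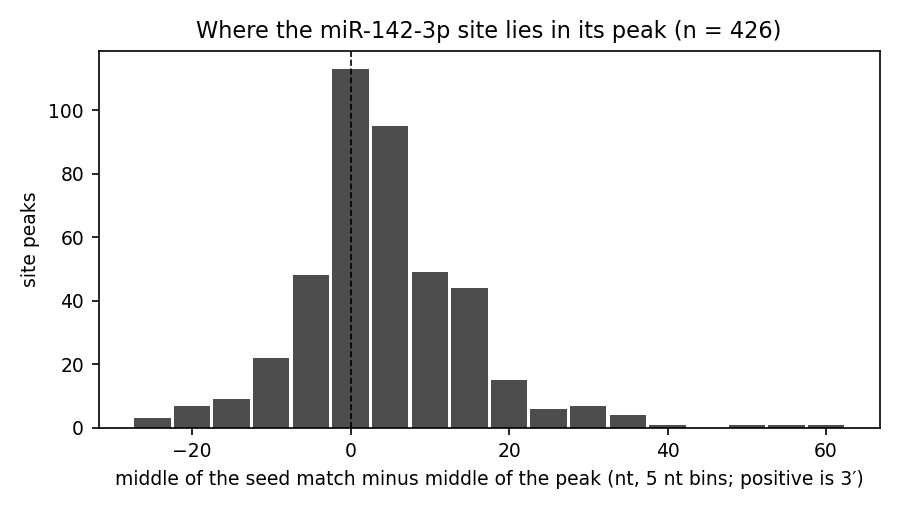
Number of miR-142-3p site peaks (y) by the distance of the middle of the seed match from the middle of the peak in nt (x, bins of 5 nt, positive toward the 3′ end). The dashed line marks the peak's middle, and 302 of 426 sites lie within 10 nt of it.

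The bases around the sites were compared with those of all peaks. The 10 bases on the 5′ side of the sites were A or U in 62.2% and those on the 3′ side in 58.2%, against 62.6% of the bases of all peak sequences. Median GC content was 40.8%, against 36.8% over all peaks, and median length was 40 nt against 39. The peaks began a median of 770 nt after the stop codon, against 880 for all. In 7mer-m8 sites the base opposite nt 1 was U in 54.5%, C in 30.6% and G in 14.9% of 134 sites with a base there. By definition of the class that base is never A, which raises the shares of the others. Over all peak sequences, where A is counted, U made up 33.7% of bases, C 17.6% and G 19.9%. The 4-letter word AGTA, which would pair with nt 13 to 16, stood in its window in 8 of 413 sites (1.94%), against 2.04% of windows of that length in all peaks. A site of any of 15 other microRNA families was in 83 of the 426 peaks (19.5%), against 33.0% of all peaks.

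By exact match to GENCODE M21 (GRCm38), 413 of the 426 peaks were placed. Of these, 405 lay in an annotated 3′ UTR of at least 1 transcript, 7 in coding sequence of that annotation and 1 in a transcript without a coding region. Where the transcripts of a gene differed, a 3′ UTR placement was preferred, and the first base of the sequence decided the class. The authors' table labels all of them as 3′ UTR.

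The deposited log2 ratio is WT over KO, so a negative value means more reads in KO, and its median was -0.01 over the 426 peaks (quartiles -0.68 and 0.61), against 0.20 over all peaks. Reads were higher in KO at 217 peaks, higher in WT at 206, and at 0 in both at 3. Over all peaks 43.3% were higher in KO and 56.4% higher in WT. By class the median ratio was 0.01 for 8mers, 0.13 for 7mer-m8 sites and -0.18 for 7mer-A1 sites. Peaks with a 7-nt miR-155 site had a median of 3.16. Over peaks of the 15 other families searched, without a miR-155 site, medians ran from -0.12 for miR-181 to 0.26 for miR-26. They were -0.07 for miR-24, -0.04 for miR-29 and 0.03 for miR-15/16.

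The difference from all peaks in median ratio was smaller among peaks with at least 20 reads. At least 20 reads were held by 280 of the 426 peaks (65.7%) and by 45.1% of all peaks. Among these the median ratio was -0.11 for the site peaks and -0.00 for all peaks, with 160 site peaks higher in KO and 120 higher in WT. KO and WT were within 2-fold at 75.4% of these site peaks and at 76.0% of all such peaks. The share of site peaks higher in KO was 53.3% from 20 to below 50 reads, against 46.8% of all peaks. It was 55.6% against 51.3% from 50 to below 100, 62.7% against 53.6% from 100 to below 200, and 63.0% against 62.1% from 200. Among peaks with fewer reads the share was 44.1% against 38.5% from 10 to below 20. It was not above that of all peaks in the lowest bins, with 38.3% against 39.0% from 5 to below 10 and 29.0% against 34.6% below 5.

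**Figure D3:**
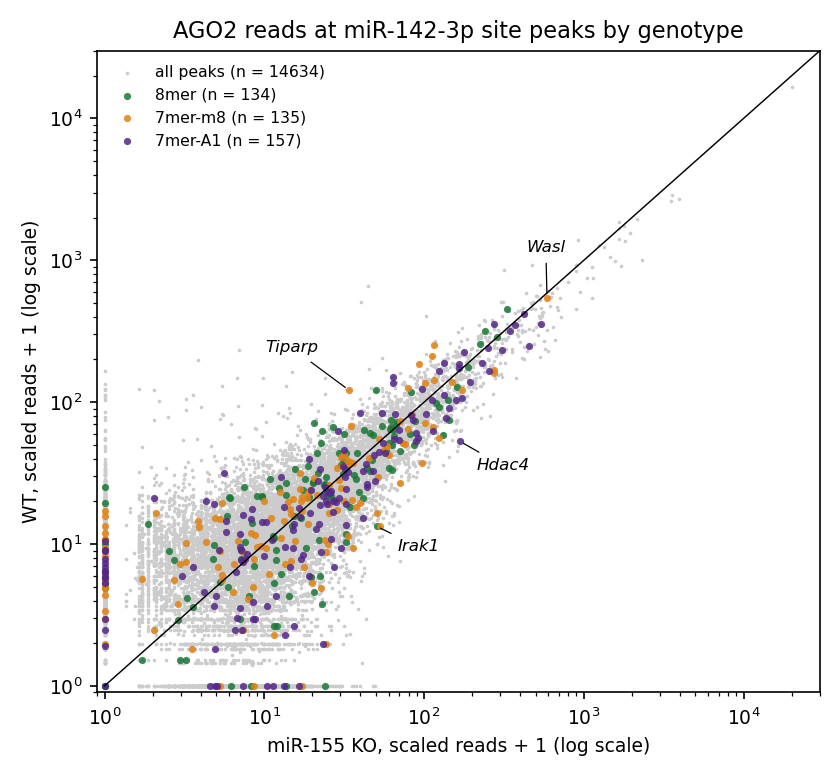
Scaled reads plus 1 in miR-155 KO (x) and WT (y), both on log scales, for all 14634 peaks (grey) and the 426 miR-142-3p site peaks coloured by site class. The line marks equal reads, and the site peaks lie on both sides of it, 217 higher in KO and 206 higher in WT.

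None of the 426 peaks passed an adjusted p of 0.05 (the authors' p-values, Benjamini-Hochberg adjustment over all peaks), where 0.601% of all peaks did. At an unadjusted p under 0.05 there were 13 (3.05%), against 4.20% of all peaks, with 8 higher in KO and 5 higher in WT. Neither count is above the background of the table, and 59 of its 88 called peaks held a 7-nt miR-155 site, which the choice of peaks left out. The smallest p was at Fyco1 peak 2, with 0 reads in KO and 14.8 in WT (p = 0.00194, adjusted p = 0.200). Fyco1 encodes an adaptor that carries autophagosomes along microtubules. Irak1, a kinase of Toll-like and interleukin-1 receptor signalling, had 49.6 reads in KO and 12.3 in WT at peak 1 (adjusted p = 0.770). Mgat4b, a glycosyltransferase gene whose only peak this was, had 51.7 in KO and 12.3 in WT (adjusted p = 0.467). The Mgat4b peak also held a miR-142-5p site.

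The peak with the most reads was peak 1 of Wasl, which encodes N-WASP, an activator of branched actin assembly through the Arp2/3 complex. It had 588 reads in KO and 543 in WT, and its seed match lies at chr6:24616237-24616242 (GRCm38, minus strand), 43 nt into the 3′ UTR. A further 3 of the 17 Wasl peaks held sites. Peak 7 had 10.2 reads in KO and 9.74 in WT, peak 8 had 123 in KO and 164 in WT, and peak 9 had 254 in KO and 165 in WT. The 4 site peaks held 75.0% of the gene's reads in KO and 75.1% in WT. Peak 8 also held sites of miR-19 and miR-181, so its reads cannot be assigned to a single microRNA. The seed matches of peaks 8 and 9 were 51 nt apart.

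**Figure D4:**
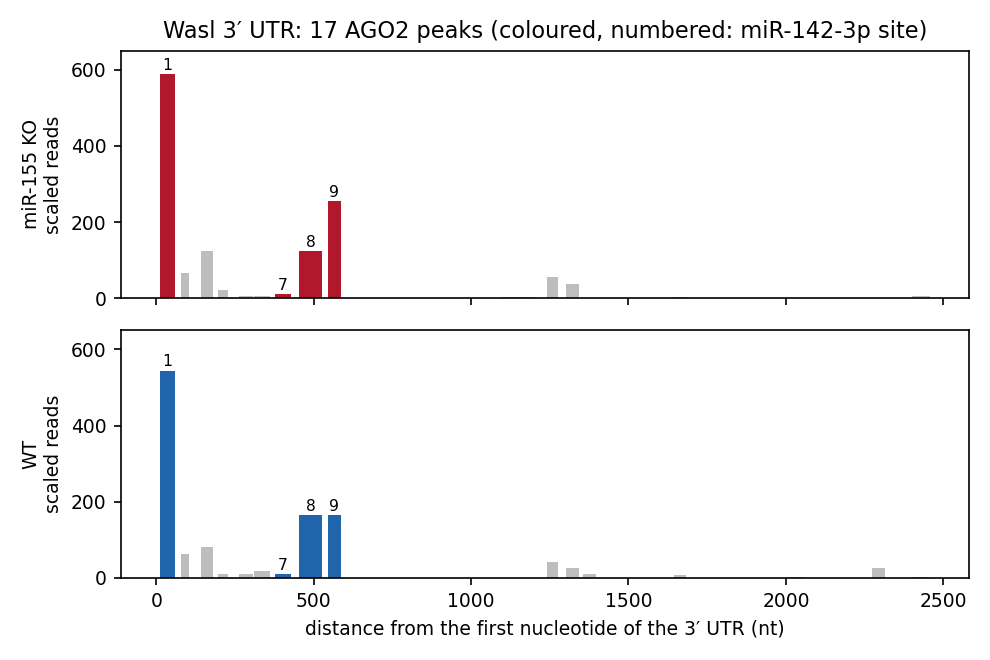
Scaled reads (y) in miR-155 KO (upper panel) and WT (lower panel) of the 17 Wasl peaks, drawn at their width by distance from the UTR's start (x, nt). The 4 coloured and numbered peaks hold a miR-142-3p site and carry 75.0% of the reads in KO and 75.1% in WT, and grey peaks hold none.

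Per nucleotide of peak, Fnip1 came first with 25.5 reads, then Wasl peak 1 with 23.6, Stxbp3a with 23.0, Elf2 with 22.7 and Jmjd1c with 21.3, over both genotypes. Neighbours in that order differ little, and no error is available to separate them. Fnip1, a partner of folliculin in nutrient sensing needed for lymphocyte development, had 538 reads in KO and 355 in WT at peak 10. Elf2, an ETS family transcription factor, had 421 in KO and 418 in WT. Stxbp3a encodes a Munc18 protein of membrane fusion and had 331 in KO and 451 in WT. The seed matches of the Elf2 and Stxbp3a peaks ran past the edge of the peak into its flank.

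Utrn, the gene of utrophin, a link between actin and the membrane, had 286 reads in KO and 285 in WT at peak 17. Jmjd1c, a Jumonji-domain chromatin protein, had 344 in KO and 315 in WT. Gimap4, a GTPase of lymphocytes, had 451 in KO and 248 in WT. Its seed match begins 725 nt into the 3′ UTR, in the flank before the peak, which starts at 731. The KO and WT values of the first 2 were nearly equal, and those of Gimap4 were not, although its p was 0.977. Serinc1 had 249 in KO and 239 in WT, Rreb1 307 in KO and 234 in WT, and Snx18 272 in KO and 168 in WT, and none of these passed the test.

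Genes with reported miR-142-3p sites were taken from a list of 19 genes known from other studies. Peaks were listed for 14 of them, and 9 had a site peak, where 9.41% of all genes of the table had one. Genes entered the list because sites had been reported in them, so a higher share follows at least in part from the choice. The 13 site peaks comprised 6 higher in KO and 7 higher in WT, with a median ratio of 0.08 and none past the adjusted threshold. Itgav, the integrin alpha V chain, had 224 reads in KO and 254 in WT at peak 6, at chr2:83803780-83803785 (GRCm38, plus strand). Tgfbr1, the type I TGF-beta receptor, had 119 in KO and 97.1 in WT at peak 7, 4098 nt into its 3′ UTR. Cfl2, a cofilin that severs actin filaments, held 2 site peaks whose seed matches were 40 nt apart, peak 6 with 51.1 in KO and 54.2 in WT and peak 7 with 21.8 in KO and 50.4 in WT.

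The others had fewer reads. Grlf1, now called Arhgap35, had 20.4 reads in KO and 42.9 in WT in a peak that held 3 sites, where only Bod1 peak 1 and 5730455P16Rik peak 2 among the other site peaks held more than 1. Tab2, an adaptor of TAK1, had 0.868 in KO and 12.9 in WT, and Arntl, the clock factor BMAL1, had 7.98 in KO and 20.6 in WT. Bod1, which helps chromosomes attach to the spindle, had 0.718 in KO and 0.511 in WT. Clock, E2f7, E2f8, Rac1 and Stau1 had peaks but no site peak, and Abcg2, Adcy9, Hmgb1, Il6 and Prom1 had no peak listed.

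Of other genes tied to actin, Myh9, nonmuscle myosin IIA, had 90.5 reads in KO and 55.2 in WT. Twf1, an actin monomer binder, had 62.9 in KO and 62.4 in WT. Of 13 genes of cAMP signalling with peaks, 5 had a site peak, and the other lists are counted in the same way. The share over all genes of the table was 9.41%. Genes with more peaks have more chances to hold a site, and no list was adjusted for that or tested. Of the 5 site peaks of cAMP signalling genes 3 had more reads in KO and 2 more in WT, with a median ratio of -0.65. Adcy7, an adenylyl cyclase that makes cAMP, had 0 reads in KO and 4.31 in WT. Pde4b, a phosphodiesterase that breaks down cAMP, had 70.1 in KO and 44.3 in WT, and Pde3b had 42.8 in KO and 24.3 in WT. The Pde3b peak also held a miR-142-5p site.

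Vesicle traffic gave 10 of 30 genes, with 3 site peaks higher in KO and 7 higher in WT. Rab1, a GTPase of transport from the endoplasmic reticulum to the Golgi, had 164 reads in KO and 173 in WT, and Rab2a had 30.5 in KO and 58.8 in WT. Ubiquitin ligases gave 7 of 22 genes, with 5 site peaks higher in KO and 3 higher in WT, including Itch, which restrains T cell activation, with 131 in KO and 110 in WT. PI3K, AKT and mTOR signalling gave 5 of 17, with 3 site peaks higher in KO and 3 higher in WT, including Rictor, a subunit of mTORC2, with 83.4 in KO and 79.9 in WT at peak 4.

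Cytokine receptors and JAK-STAT genes gave 5 of 26, and all 6 of their site peaks had more reads in KO, with a median ratio of -0.38 and none past the threshold. Of all 426 site peaks 50.9% had more reads in KO, and a lean within so short a list was not tested. Il10ra peak 3 was nearly equal, with 28.2 reads in KO and 27.2 in WT. Ifnar1, a chain of the type I interferon receptor, had 123 reads in KO and 92.1 in WT. Il12rb2, a chain of the interleukin-12 receptor, had 123 in KO and 55.0 in WT. Socs5, a suppressor of cytokine signalling, had 40.6 in KO and 31.8 in WT. The microRNA pathway gave 3 of 15 genes, and their 3 site peaks were higher in KO, which was not tested either. Eif2c2, the gene of AGO2 itself, had 101 in KO and 82.0 in WT. Cnot6l had 31.3 in KO and 18.2 in WT, and Ddx6 had only 4.27 in KO and 0 in WT.

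Chromatin regulators gave 6 of 46 genes, with 6 site peaks higher in KO and 2 higher in WT. Hdac4, a class IIa histone deacetylase, had 166 reads in KO and 52.0 in WT in its only peak (p = 0.0579). Tet3, a DNA demethylation enzyme, had 49.1 in KO and 120 in WT. T cell receptor and costimulation genes gave 2 of 25, helper T cell transcription factors 5 of 37, TGF-beta and SMAD genes 3 of 16, cell cycle genes 2 of 30 and apoptosis genes 2 of 14. No site peak of any list was called.

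Most genes had a single site peak. There were 362 genes with 1, 27 with 2, Gna11 and Ash1l with 3, and Wasl with 4. In 156 of the 328 genes with a site peak and at least 2 peaks in all, the most-read peak was a site peak. The median share of such a gene's reads at site peaks was 35.3% in KO and 31.0% in WT. Gna11, a G protein alpha subunit, had 8mers in 3 of its 4 peaks, with 0 reads in KO and 4.31 in WT at peak 1, 23.3 in KO and 28.5 in WT at peak 2, and 45.1 in KO and 31.5 in WT at peak 3. Gna11 peak 2 also held a miR-15/16 site. Of 34 pairs of neighbouring site peaks within a gene, 8 had seed matches at most 100 nt apart.

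Peaks that passed the test can be listed beside site peaks of the same 3′ UTR. Peaks past an adjusted p of 0.05 are named called peaks here. There were 16 genes with both a site peak and a called peak, and all 16 called peaks had fewer reads in KO, with ratios of 2.58 to 7.38. A 7-nt miR-155 site was in 15 of them, and Gas2l3 peak 7 held none. The 18 site peaks in the same genes had a median ratio of -0.18, with 12 higher in KO and 6 higher in WT, and ranged from -3.55 to 3.42. None of the 18 passed the test. Called peaks were chosen by their difference between genotypes, and site peaks exclude 7-nt miR-155 sites. A difference between the 2 kinds of peak therefore follows from the choice, and it was not tested.

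The closest pairs show both kinds side by side. Irgm2, an immunity-related GTPase, had 29.5 reads in KO and 34.4 in WT at its miR-142-3p site peak, and 8.71 in KO and 57.0 in WT at a called peak that starts 62 nt away. Rheb, the GTPase that activates mTORC1, had 112 in KO and 210 in WT at peak 2, and 12.6 in KO and 128 in WT at called peak 1, which starts 66 nt away. Bach1, a repressor of oxidative stress genes, had 4.10 in KO and 5.85 in WT at peak 5, and 0 in KO and 53.9 in WT at called peak 6, which starts 100 nt away.

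Mobkl3, now called Mob4, had 241 in KO and 318 in WT at peak 6, and 0 in KO and 103 in WT at called peak 8, which starts 143 nt away. Jmjd1c had 344 reads in KO and 315 in WT at peak 4, against 2.20 in KO and 33.9 in WT at called peak 1. Adam10, a membrane protease, had 23.1 in KO and 24.1 in WT at peak 5, and 0.718 in KO and 47.5 in WT at called peak 6. Rps6ka3 peak 4, with 0 in KO and 9.67 in WT, was the site peak with a ratio nearest to that of its called neighbour, and Fosl2 peak 2, with 22.3 in KO and 0.991 in WT, was the farthest. Both have few reads in 1 genotype.

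**Figure D5:**
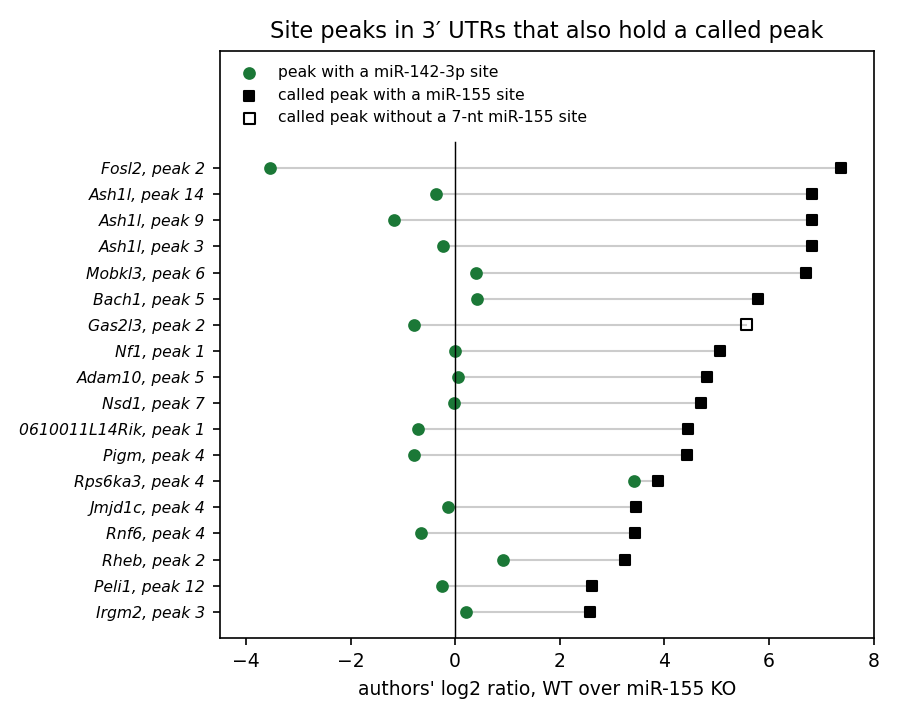
The authors' log2 ratio, WT over miR-155 KO (x), of each miR-142-3p site peak (circle) and of the called peak in the same gene (square, open where it holds no 7-nt miR-155 site), with 1 row per site peak. The called peaks span 2.58 to 7.38 and the site peaks -3.55 to 3.42. Called peaks were chosen by their difference between genotypes.

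The largest differences among site peaks with at least 20 reads were mostly at peaks with few reads in 1 genotype, and none passed the adjusted threshold. Toward WT they were led by Rab12 with 0 reads in KO and 24.4 in WT, Ccdc6 with 1.04 in KO and 20.3 in WT, and Ubr3 with 4.57 in KO and 30.5 in WT. Toward KO they were led by Prpf39 with 23.1 in KO and 0 in WT, Mga with 23.2 in KO and 0.976 in WT, and Fosl2 peak 2. Tiparp, with 32.7 in KO and 121 in WT, was the most-read of the 10 toward WT, and Irak1 and Mgat4b were the most-read of those toward KO.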

How the data were processed

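AGO2 HITS-CLIP libraries of activated CD4+ T cells, 12 from miR-155 KO and 12 from WT, were pooled by the authors into 1 value per genotype and peak. The submitters' processing notes name Bowtie 0.12.7 and the build mm9. How peaks were called, reads scaled and p-values obtained was not given in any source used here. Per the file headers, the deposited columns hold log2 reads of each genotype, their log2 ratio (WT over KO) and a p-value for differential binding.

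Scaled reads were computed as 2 to the power of the deposited log2 value, minus 1. Benjamini-Hochberg adjustment of the deposited p-values ran over all 14634 peaks, and calls were made at 0.05. The test per peak across libraries that had been planned could not be made from pooled values, and the spread between libraries behind the p-values is unknown. Depth is unknown, so no counting interval was computed. Since nothing in the pooled table separates cultures or animals, the p-values may measure technical spread.

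Sites were searched in the deposited sequence, which runs 6 nt beyond each end of the 426 peaks. Genome positions come from exact matches to GENCODE M21 transcripts (GRCm38), not from mm9, and microRNA sequences from RefSeq. The 15 other families searched do not include miR-150, which was not used here.

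The genes named were drawn from the 15 most-read site peaks, the 10 highest and 10 lowest ratios with at least 20 scaled reads, genes with at least 3 site peaks, reported targets, and up to 4 genes of each list. Not every gene of these sets is named in the text, and no rule set beforehand decided which were left out. The result of 1 list is not reported here. Fyco1, genes beside a called peak and the genes of the closing section were chosen after their values were seen. Members and lists were chosen with earlier results of these data known. Alternatives were other thresholds, a Bonferroni adjustment, minimum reads, no pseudocount, centring, other site definitions, no flanks and 1 peak per gene. The site search and the adjustment were tested on simulated data. Python 3.11.15, NumPy 2.4.6, pandas 2.3.3 and Matplotlib 3.10.9 were used.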

Additional observations from a re-analysis of the deposited data

How the results depend on the processing

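No miR-142-3p site peak was called at adjusted p thresholds of 0.01 or 0.1, with a Bonferroni adjustment, with at least 10 reads before adjustment, or over peaks with reads in both genotypes, the last chosen after seeing the data. Over all peaks the calls numbered 88, and they were 50 with Bonferroni and 40 over peaks with reads in both genotypes. The median ratio of the site peaks (WT over KO, -0.01) lay between -0.21, when centred on the median of all peaks, and 0.069, when the seed was moved 1 nt toward its 3′ end. The median reads of peaks with at least 10 reads were 24.2 in KO and 22.5 in WT, a change that follows from leaving out low peaks, and the median of 8mers alone was 21.7 in WT. Centring subtracts the median ratio of all peaks (0.20), which sets the size of that shift. The cause of the remaining shifts was not tested. The other 30 settings kept medians within the 95% order-statistic interval of the median over the site peaks, and counts within 1.5 times. That interval treats peaks as independent, although some share a gene, and it holds no error between libraries. No paired analysis was possible because the table pools the libraries of a genotype, and for the same reason the planned fits that leave out a library were not run. Differences of low peaks cannot be weighed, since depth is unknown.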

Other observations

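Peaks that match miR-142-3p with the seed moved 1 nt toward its 3′ end (nt 3 to 9, or nt 3 to 8 followed by an A) were also counted, since 5′ ends of microRNAs can vary. The site words are AACACTA and ACACTAA. They were in 614 peaks without a miR-155 site, of which 101 were among the 426 and 512 held no 6-nt match to the usual seed. Those 512 had a median of 18.5 reads in KO and 17.8 in WT, and none was called at an adjusted p of 0.05 with the authors' p-values. Of the 512, 74.2% had the match within 10 nt of the peak's middle and 15.8% held a site of another searched family. Among the 1403 peaks with at least 100 reads, ACACTAA ranked 1 and AACACTA ranked 2 of 12413 words, above CACTACA and ACACTAC. The reverse complements of the moved words were in 98 and 105 of all peaks, where ACACTAA itself was in 388 and AACACTA in 419.

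The most-read of the 512 were in C130039O16Rik with 3948 reads in KO and 2722 in WT, and in Hif1a, the hypoxia-inducible factor, with 3545 in KO and 2889 in WT. Herpud1, a gene of protein quality control in the endoplasmic reticulum, had 1668 in KO and 1682 in WT. Of the reported targets with peaks but without a site peak, E2f7 and Stau1 each had 1 peak with the moved match. For comparison, the 8705 peaks with none of the searched sites had medians of 6.37 reads in KO and 8.17 in WT. Which 5′ ends miR-142-3p has in these cells was not measured here.

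Sites of miR-142-5p, the other strand of the hairpin, were in peaks of 371 genes, and 44 of these genes (11.9%) also had a miR-142-3p site peak, where 9.41% of all genes of the table had one. The 44 were 11.2% of the 392 genes with a miR-142-3p site peak, and 8.91% of all genes had a miR-142-5p site peak. This overlap was not tested. Utrn had the most reads of these, with 286 in KO and 285 in WT at its miR-142-3p site in peak 17, and 611 in KO and 551 in WT at its miR-142-5p site in peak 13. Apc, a scaffold of Wnt signalling, had 82.3 in KO and 117 in WT at its miR-142-3p site, and 132 in KO and 100.4 in WT at its miR-142-5p site. Nr3c1, the glucocorticoid receptor, had 84.7 in KO and 74.4 in WT at its miR-142-3p site, and 79.4 in KO and 61.7 in WT at its miR-142-5p site.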
